A study of Mus musculus with 12 samples.

Results

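The genes described here are 41 genes of the ATF4 response, chosen by name for their roles: 12 regulators and stress effectors, 8 enzymes of amino acid and folate metabolism, 9 amino acid transporters and 12 cytosolic aminoacyl-tRNA synthetases. The list was drawn up with earlier results of these data known. Of the 41 genes, 40 had a row of their own among the 23174 rows of each table. Aars, the alanyl-tRNA synthetase, stood only in an entry joined with its neighbour Exosc6, so its RNA could not be separated and it is left out of every count of levels and calls. RNA was sequenced from T-ALL of the mouse (T cell acute lymphoblastic leukaemia, which arises from immature T cells), with 12 samples in 4 groups of 3. All were of the C57BL/6 strain and labelled Notch1-deltaE+, an active form of Notch1 lacking most of its extracellular part, which drives the leukaemia. In the ex vivo experiment T-ALL cells received AMD3100, an inhibitor of the chemokine receptor CXCR4, or vehicle. The primary tumours were Cxcr4-/- or Cxcr4+/+. Per the labels, leukaemia cells from spleen were kept on mitomycin-treated OP9 cells, a mouse stromal line, with 5 ng/ml IL-7, and this culture text stands on all 12 samples. The sources used here do not give the dose of AMD3100 or its duration, nor say whether the tumours were in fact cultured.

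ATF4 is a transcription factor made when kinases that sense missing amino acids, unfolded proteins, viral RNA or low haem phosphorylate the translation factor eIF2, which slows protein synthesis in general but lets the Atf4 messenger RNA be translated. With partners of the C/EBP family, ATF4 raises genes that import amino acids, make them and charge them onto tRNA, and also genes that limit growth or promote cell death when the stress lasts. In T cells, amino acid transporters such as Slc7a5 are known to be needed for growth after activation. Because ATF4 protein is controlled mainly by translation, the level of Atf4 RNA is not a measure of its activity.

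ATF4 and C/EBP proteins bind a composite element whose core can be written TGATGNAA, or TTNCATCA on the other strand. That core, at full length and on either strand, was searched in RefSeq promoter windows (GRCm38.p6) running from 250 bases before to 50 bases after each gene's start. A window was found for 34 of the 41 genes, and 13 of them (38.2%) held a match, against 4.51% of all 27025 genes with a window. Matches stood in 4 of 12 regulators (Atf3, Trib3, Chac1, Nupr1), 2 of 8 synthesis enzymes (Asns, Pycr1), 2 of 6 transporters (Slc7a11, Slc1a4) and 5 of 8 synthetases (Aars, Gars, Iars, Tars, Yars). A match is a run of letters and not a measured binding site, and these genes were listed partly because their control by ATF4 is known. The 30 bases around the match are shown, 5′ to 3′ on the gene's strand with the core in capitals, for 6 genes whose values are given in the following paragraphs. Trib3 lies at chr2:152344028-152344057, minus strand, and Chac1 at chr2:119351038-119351067, plus strand. The Asns stretch lies at chr6:7693214-7693243 and the Nupr1 stretch at chr7:126625562-126625591, both on the minus strand. Slc7a11, which held 2 matches in opposite orientation, lies at chr3:50443651-50443680 and Slc1a4 at chr11:20332699-20332728, both also on the minus strand.
Trib3: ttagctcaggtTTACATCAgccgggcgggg
Chac1: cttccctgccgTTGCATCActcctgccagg
Asns: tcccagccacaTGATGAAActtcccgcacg
Nupr1: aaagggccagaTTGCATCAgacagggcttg
Slc7a11: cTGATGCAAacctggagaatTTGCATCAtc
Slc1a4: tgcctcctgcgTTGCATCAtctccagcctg

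For the Asns and Chac1 genes, whose RNA levels separated AMD3100 from vehicle samples in every pair, the whole 250 bases before the start are also given to show where in the promoter the core lies. It ended close to the start of Asns, with its first base 23 bases before it, and lay 193 bases before the start of Chac1. The Asns window is chr6:7693210-7693459 on the minus strand and the Chac1 window chr2:119350992-119351241 on the plus strand.
Asns: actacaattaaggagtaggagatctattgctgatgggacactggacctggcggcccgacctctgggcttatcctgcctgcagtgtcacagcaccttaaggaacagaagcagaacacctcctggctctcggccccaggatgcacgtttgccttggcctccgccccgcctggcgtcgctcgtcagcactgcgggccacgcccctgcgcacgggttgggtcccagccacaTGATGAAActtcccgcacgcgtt
Chac1: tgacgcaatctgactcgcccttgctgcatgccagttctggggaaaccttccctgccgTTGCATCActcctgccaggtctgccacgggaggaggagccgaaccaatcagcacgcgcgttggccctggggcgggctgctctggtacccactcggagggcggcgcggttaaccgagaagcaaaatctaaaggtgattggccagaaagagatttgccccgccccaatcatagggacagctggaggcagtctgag

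Levels are given in FPKM, a measure of RNA abundance corrected for transcript length and library size, and changes are differences of log2(FPKM + 1), which understate the change of genes with low values. Summed FPKM ran from 444803 to 480468 in the ex vivo libraries and from 368118 to 581159 in the tumours. A listed 0 need not mean absence, since Gapdh, a gene that all cells use, was listed at 0 to 0.179 FPKM ex vivo and 0 to 0.532 FPKM in the tumours. Nothing in the labels says whether replicates were separate animals or separate cultures, so the p-values here measure only the spread among these samples. In bulk RNA, fewer cells of a type and less RNA per cell cannot be told apart.

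In the cultured T-ALL cells, 20 of the 39 genes that passed the filter of a mean of 1 FPKM rose with AMD3100 and none fell, when same-numbered AMD3100 and vehicle samples were compared as pairs. The 20 were 8 of 11 regulators, 4 of 8 synthesis enzymes, 7 of 9 transporters and 1 of 11 synthetases. Slc7a3 and Slc7a11 passed the filter only through the AMD3100 samples, so their presence among the genes tested is itself set by their difference. Without them 19 of 37 genes rose, 6 of 7 transporters among them, against 10.0% of all 9976 genes with a mean of 1 FPKM in both groups. In the same fit 9.96% of all 10245 genes rose and 9.92% fell. Because the genes were listed with earlier results of these data known, their share beside that of all genes is a description and not a test. Without the pairing limma called 0 of the 39, against 0.127% of all genes, and 22 of the 39 had an unadjusted p under 0.05, against 21.5% of all genes. The unpaired adjusted p of the 39 genes ran from 0.0544 to 0.955. "Rose" and "fell" in the following paragraphs refer to the paired fit, and its adjusted p and SE are the ones given. The paired count also rests on all 3 pairs: without the samples numbered 1 or those numbered 2 it was 0, and without those numbered 3 it was 11.

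The direction was shared by the pairs. In pairs 1, 2 and 3, 35, 33 and 35 of the 39 genes were higher in the AMD3100 sample, against 51.9%, 49.9% and 49.0% of all genes. All 11 regulators and all 9 transporters were higher in the AMD3100 sample of every pair. The 39 genes and the 9 transporters include Slc7a3 and Slc7a11, which passed the filter only through the AMD3100 samples. The upward direction of Slc7a3 and Slc7a11 was therefore partly set by the filter. In pair 2 Slc7a11 was hardly detected in either sample. The upward change was the largest in pair 3 for 26 of the 39 genes and the smallest in pair 2 for 29. The median log2 change was 1.16 for the regulators, 0.76 for the transporters, 0.33 for the synthesis enzymes and 0.20 for the synthetases, against 0.00 for all genes tested. Without Slc7a3 and Slc7a11 the transporter median was 0.74. Of the 39 genes, 24 had all AMD3100 samples above all vehicle samples, against 13.1% of all genes, and 1, Tars, had them all below, against 15.8%. The 24 include Slc7a3.

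**Figure D1:**
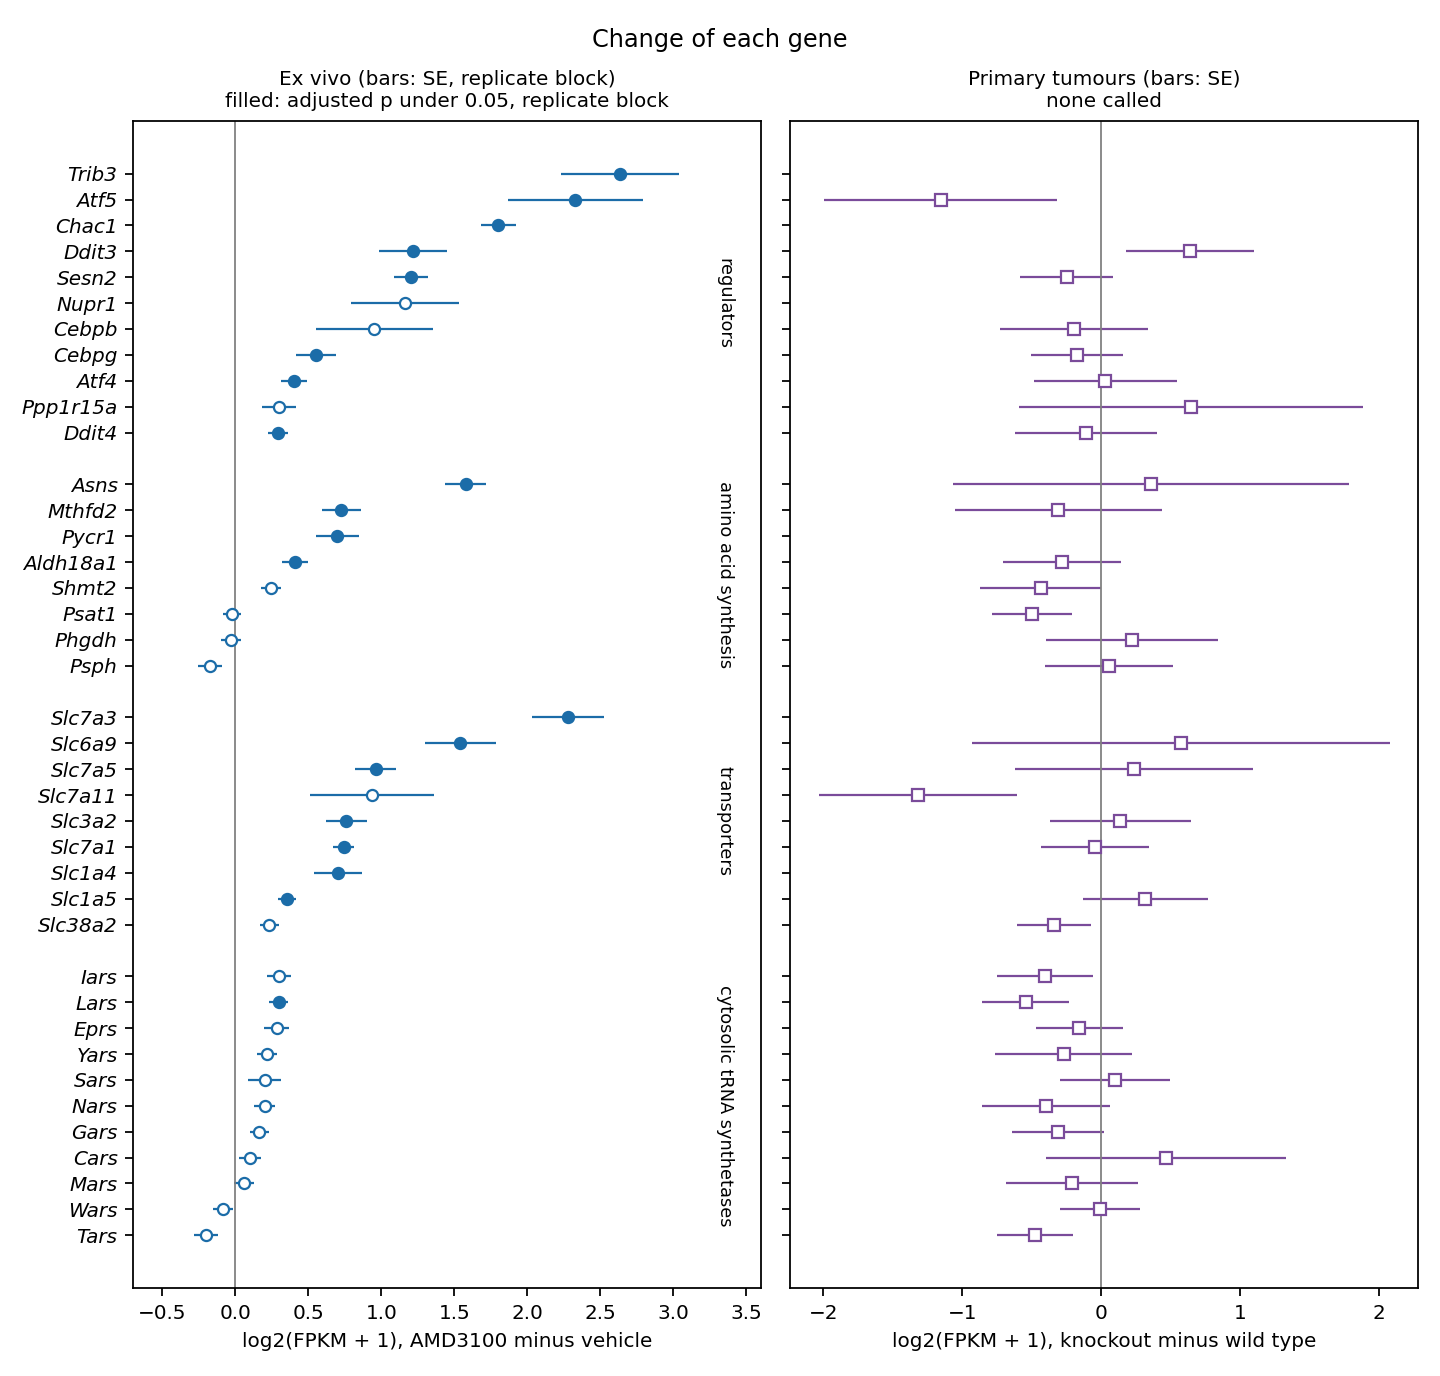
Difference of log2(FPKM + 1) for each gene that passed the filter, AMD3100 minus vehicle on the left and Cxcr4 knockout minus wild type on the right, with bars for the SE (replicate block on the left) and filled symbols for an adjusted p under 0.05. The 20 filled symbols all lie to the right of 0 in the ex vivo panel, and no symbol is filled in the tumour panel.

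Among the regulators, the changes were led by genes that are known to lie downstream of ATF4 and by its relative Atf5. Trib3, a pseudokinase that restrains ATF4 in a feedback loop, had 28.1, 12.4 and 64.0 FPKM in AMD3100 samples 1, 2 and 3, against 4.52, 3.16 and 3.58 FPKM in the vehicle samples. Every AMD3100 sample was above every vehicle sample, and the AMD3100 samples spread more widely among themselves. The log2 change was 2.64 (SE 0.40, adjusted p = 0.0221), the largest of the 39 genes, and the ratio of the means was 9.28. Atf5, a factor of the same family whose translation is also favoured when eIF2 is phosphorylated, had 109.7, 57.6 and 143 FPKM with AMD3100 and 25.7, 23.9 and 10.0 FPKM with vehicle, a log2 change of 2.33 (SE 0.46, adjusted p = 0.0312). Its lowest AMD3100 sample stood above its highest vehicle sample, and vehicle sample 3 was the lowest of the 6. In an alternative paired fit with robust variance, neither Trib3 nor Atf5 was called.

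Chac1, an enzyme that breaks down glutathione, had 6.15, 10.2 and 12.1 FPKM in the AMD3100 samples and 1.22, 2.25 and 2.42 FPKM in the vehicle samples. Its change was alike in the 3 pairs, at 1.68, 1.79 and 1.93, and the mean change of 1.80 (SE 0.12) had the smallest adjusted p of the 39 genes, 0.0169. Ddit3, which encodes CHOP, a factor that promotes cell death under lasting stress, had 37.3, 26.9 and 48.3 FPKM with AMD3100 and 13.1, 18.4 and 14.3 FPKM with vehicle. The groups did not overlap for Ddit3, and it rose by 1.22 (SE 0.23, adjusted p = 0.0302), with the smallest of its 3 pair differences, 0.52, in pair 2. Sesn2, a leucine-sensing inhibitor of the growth kinase mTORC1, averaged 18.4 ± 8.50 FPKM with AMD3100 and 7.14 ± 2.14 FPKM with vehicle (SD, n = 3 each) and rose by 1.20 (SE 0.12, adjusted p = 0.0191 in the paired limma fit).

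Atf4 RNA was abundant in all cultures and changed less than Trib3, Chac1 or Asns, with 211, 188 and 263 FPKM in the AMD3100 samples against 154, 163 and 179 FPKM in the vehicle samples. The lowest AMD3100 sample was above the highest vehicle sample, and the log2 change was 0.40 (SE 0.089, adjusted p = 0.0390). Cebpg, a dimer partner of ATF4, rose by 0.55 (adjusted p = 0.0470). Ddit4, another inhibitor of mTORC1, rose by 0.29 (adjusted p = 0.0440), although its groups overlapped, because each AMD3100 sample was above the vehicle sample of the same number. These 2 adjusted p-values lie just under the threshold of 0.05.

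The other 4 regulators did not pass the test. Nupr1, a stress-induced chromatin protein, averaged 13.9 ± 5.83 FPKM with AMD3100 and 6.08 ± 3.86 FPKM with vehicle, a log2 difference of 1.16 (SE 0.37) with an adjusted p of 0.0847 in the paired limma fit. Cebpb, a C/EBP factor that pairs with ATF4, averaged 23.6 ± 30.8 FPKM with AMD3100 and 6.97 ± 4.50 FPKM with vehicle, and AMD3100 sample 3 alone stood at 59.2 FPKM. Its log2 difference of 0.95 turned to -0.10 in the unpaired fit without that sample. Ppp1r15a, the subunit that directs a phosphatase to eIF2 and so restarts translation, differed by 0.30 (adjusted p = 0.130). Atf3 was below the filter, at 0 to 0.503 FPKM with AMD3100 and 0 to 0.173 FPKM with vehicle.

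**Figure D2:**
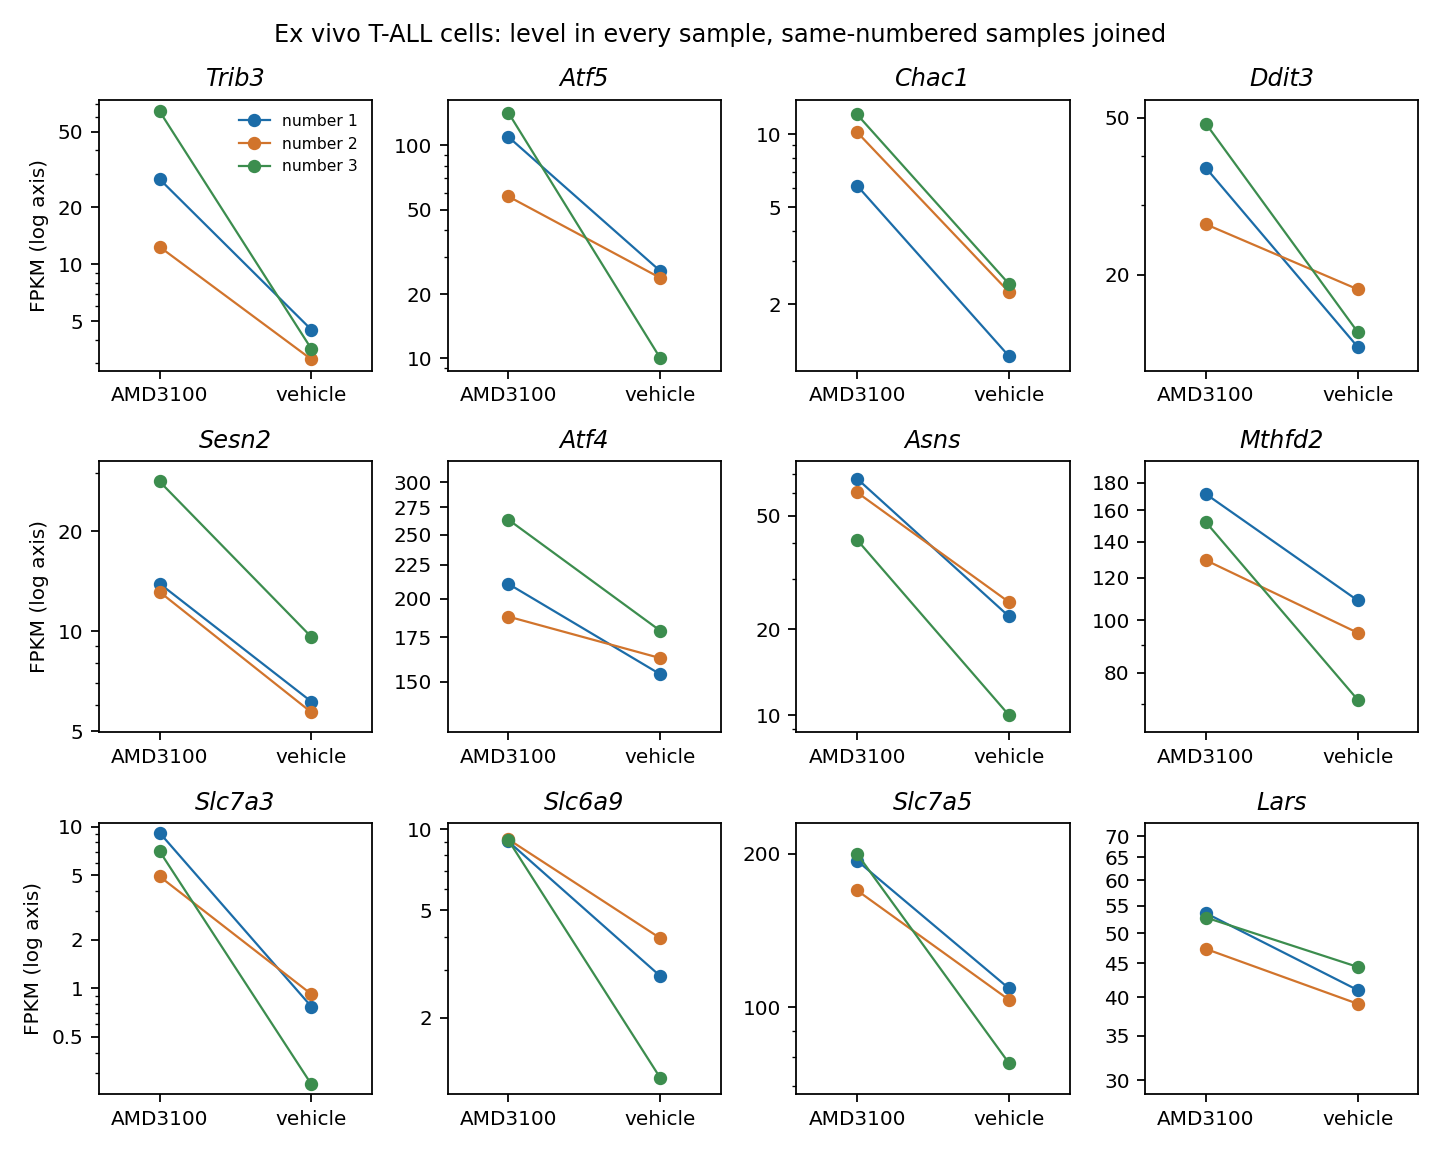
FPKM of 12 genes (log axes) in every ex vivo sample, with AMD3100 on the left and vehicle on the right of each panel and lines joining samples of the same number. Each line is higher at its AMD3100 end, by the most for Trib3, Atf5 and Slc7a3 and by little for Atf4 and Lars.

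Of the synthesis enzymes, Asns, Mthfd2 and both proline enzymes rose, and Shmt2 and the enzymes of serine synthesis did not pass. Asns, asparagine synthetase, had 67.3, 60.2 and 41.1 FPKM in the AMD3100 samples and 22.2, 24.9 and 10.0 FPKM in the vehicle samples. The groups did not overlap, sample 3 was the lowest in both, and the log2 change was 1.58 (SE 0.14, adjusted p = 0.0191). Mthfd2, an enzyme of the mitochondrial folate cycle, had 172, 129 and 152 FPKM with AMD3100 and 109, 94.8 and 71.2 FPKM with vehicle, a change of 0.73 (adjusted p = 0.0282). Its groups were separate too, by the gap between AMD3100 sample 2 and vehicle sample 1.

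Both proline enzymes rose, at very different levels. Aldh18a1, which makes the proline precursor from glutamate, had 70.2, 66.3 and 72.1 FPKM with AMD3100 and 48.9, 57.8 and 50.3 FPKM with vehicle, a log2 change of 0.41 (adjusted p = 0.0389). Pycr1, which completes proline in mitochondria, had 1.93, 3.86 and 3.78 FPKM with AMD3100 and 1.03, 1.92 and 1.70 FPKM with vehicle, a change of 0.70 (adjusted p = 0.0360). The groups did not overlap for either gene. Of the 4 enzymes that did not pass, Shmt2, which converts serine to glycine in mitochondria, came closest, with 242 ± 18.7 FPKM with AMD3100 and 204 ± 10.7 FPKM with vehicle (SD, n = 3 each) and an adjusted p of 0.0578 in the paired limma fit. The enzymes that make serine from a glycolytic intermediate showed little difference in level. Psat1, the aminotransferase of that route, averaged 199.9 ± 23.9 FPKM with AMD3100 and 203 ± 17.9 FPKM with vehicle. Phgdh, its first enzyme, averaged 39.7 ± 4.87 FPKM with AMD3100 and 40.4 ± 2.56 FPKM with vehicle. Psph, its last enzyme, averaged 26.0 ± 1.10 FPKM with AMD3100 and 29.5 ± 2.25 FPKM with vehicle.

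Most transporters rose. Slc7a3, a carrier of arginine, lysine and ornithine, had 9.20, 4.93 and 7.07 FPKM in the AMD3100 samples, against 0.77, 0.92 and 0.25 FPKM in the vehicle samples. It was below the filter in every vehicle sample, so its log2 difference of 2.28 (SE 0.25) is given as a description, with no p. Slc6a9, the glycine transporter GlyT1, had 9.02, 9.18 and 9.12 FPKM with AMD3100 and 2.86, 3.95 and 1.20 FPKM with vehicle, a change of 1.54 (SE 0.24, adjusted p = 0.0229). The AMD3100 samples of Slc6a9 were almost equal, so that the differing size of the 3 pair differences came from the vehicle samples.

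Slc7a5, the carrier of leucine and other large neutral amino acids, was the most abundant transporter with AMD3100, at 194, 169 and 199.7 FPKM in the AMD3100 samples and 109, 103 and 77.7 FPKM in the vehicle samples. The groups did not overlap, and it rose by 0.96 (SE 0.14, adjusted p = 0.0200). Slc3a2, the heavy chain with which Slc7a5 and Slc7a11 form working carriers, rose with it, at 155 ± 15.8 FPKM with AMD3100 and 91.2 ± 12.7 FPKM with vehicle (log2 change 0.76, adjusted p = 0.0280 in the paired limma fit). The arginine and lysine carrier Slc7a1 rose by 0.74 (adjusted p = 0.0191), the neutral amino acid exchanger Slc1a4 by 0.70 (adjusted p = 0.0437) and the glutamine carrier Slc1a5 by 0.36 (adjusted p = 0.0251). Slc38a2, a sodium-coupled neutral amino acid carrier that is a textbook responder to amino acid lack, was higher in all AMD3100 samples by a small step of 0.23 and did not pass (adjusted p = 0.0664).

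Slc7a11, the cystine carrier, differed from the rest of its group. It had 0.89, 0.01 and 11.4 FPKM in AMD3100 samples 1, 2 and 3, against 0.19, 0 and 1.85 FPKM in the vehicle samples. Only the samples numbered 3 held more than 1 FPKM, in both treatments, and the groups overlapped. Slc7a11 passed the filter only through the AMD3100 samples, so its log2 difference of 0.94 (SE 0.43) is given as a description, with no p. That difference turned to -0.12 in the unpaired fit without AMD3100 sample 3.

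The cytosolic tRNA synthetases, which load each amino acid onto its tRNA, moved little. Lars, the leucine enzyme, was the single call, with 53.6, 47.3 and 52.8 FPKM in the AMD3100 samples and 41.03, 39.1 and 44.5 FPKM in the vehicle samples. Its groups did not overlap, and it rose by 0.30 (SE 0.067, adjusted p = 0.0407). Iars, the isoleucine enzyme, had 70.8, 66.7 and 86.0 FPKM with AMD3100 and 56.0, 60.6 and 63.5 FPKM with vehicle, and Eprs, which carries the glutamate and proline enzymes in a single chain, had 107, 91.2 and 119.8 FPKM with AMD3100 and 85.6, 84.9 and 89.0 FPKM with vehicle. Both were higher in all AMD3100 samples, by 0.30 and 0.28, and neither passed (adjusted p = 0.0596 and 0.0735). Yars, the tyrosine enzyme, had 57.2, 50.8 and 64.4 FPKM with AMD3100 and 48.4, 46.5 and 52.5 FPKM with vehicle (log2 difference 0.22, adjusted p = 0.0824), with AMD3100 sample 2 below vehicle sample 3. The log2 differences of the 11 enzymes ran from -0.20 for Tars, the threonine enzyme, to 0.30 for Iars. Tars averaged 73.9 ± 3.07 FPKM with AMD3100 and 85.2 ± 6.54 FPKM with vehicle (SD, n = 3 each; adjusted p = 0.148 in the paired limma fit). The joined entry of Aars and Exosc6 had 104, 104 and 146 FPKM with AMD3100 and 98.7, 91.0 and 96.5 FPKM with vehicle.

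Genes with and without a promoter match were both among those that rose. Of the 11 genes with a match that passed the filter, 5 rose, and of the 21 without a match, 11 rose. Among those with a match, Trib3, Chac1, Asns, Pycr1 and Slc1a4 rose, and Gars, Iars, Tars and Yars, with Nupr1 and Slc7a11, did not pass. A window without these letters says nothing of elements elsewhere in the gene, and the promoters of 7 of the 41 genes, Slc7a5 and Slc7a3 among them, were not matched to the RefSeq table.

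Several other known targets of ATF4 also rose. Of 24 further ATF4 targets, 18 passed the filter. Of the 18, 9 rose (50%, against 9.96% of all genes) and none fell, against 9.92% of all genes. The median log2 change was 0.43, and 4 of the 18 had a negative difference, down to -0.42. Whether any of the 18 passed the filter only through the AMD3100 samples was not tested, and the direction of such a gene would be partly set by the filter. The share of 50% is therefore a description and not a test. Pck2, the mitochondrial enzyme that makes phosphoenolpyruvate, averaged 11.3 ± 5.00 FPKM with AMD3100 and 3.71 ± 2.50 FPKM with vehicle (log2 change 1.48, adjusted p = 0.0197 in the paired limma fit). Vegfa, a growth factor for blood vessels, rose by 1.18 (adjusted p = 0.0197) and Jhdm1d, a histone demethylase, by 0.91 (adjusted p = 0.0221). The other 6 that rose were Gpt2, Eif4ebp1, Stc2, Cth, Bcat1 and Herpud1.

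Cytosolic synthetase and scaffold genes outside the 41 included falls and no rise. Of 11 such genes, 4 fell (36.4%, against 9.92% of all genes) and none rose, against 9.96% of all genes, with a median of -0.30. The 4 were the scaffold protein Aimp2 (log2 change -0.58, adjusted p = 0.0191), the arginine enzyme Rars (-0.49, adjusted p = 0.0199), the histidine enzyme Hars (-0.35, adjusted p = 0.0310) and the lysine enzyme Kars. Of 17 mitochondrial synthetases, Lars2 and Yars2 fell (11.8%), a share close to the 9.92% of all genes, and none rose. Rars had 72.6, 70.3 and 69.7 FPKM in the AMD3100 samples and 101, 93.0 and 106 FPKM in the vehicle samples, with no overlap.

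Genes of the eIF2 machinery mostly fell or did not pass. Of 14 genes, 6 fell (42.9%, against 9.92% of all genes). They were Eif2s1, the eIF2 subunit that is phosphorylated, and all 5 subunits of eIF2B, its exchange factor. Eif2s1 averaged 35.7 ± 1.59 FPKM with AMD3100 and 55.4 ± 7.41 FPKM with vehicle (log2 change -0.61, adjusted p = 0.0197 in the paired limma fit). Eif2b1 fell by 0.53 (adjusted p = 0.0199) and Eif2b4 by 0.58 (adjusted p = 0.0200). Eif2s2 was the 1 gene of the 14 that rose (7.14%, against 9.96% of all genes). None of the 4 eIF2 kinases passed, with log2 differences from -0.21 for Eif2ak4, the kinase that senses uncharged tRNA, to 0.24 for Eif2ak2. The other arms of the unfolded protein response raise ER lumen chaperones and Xbp1. Among 14 of these genes none rose and 4 fell (28.6%, against 9.92% of all genes). Those that fell were Pdia6 (-0.62, adjusted p = 0.0197), Creld2 (-0.53, adjusted p = 0.0228), Hsp90b1 (-0.39, adjusted p = 0.0305) and Calr.

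**Figure D3:**
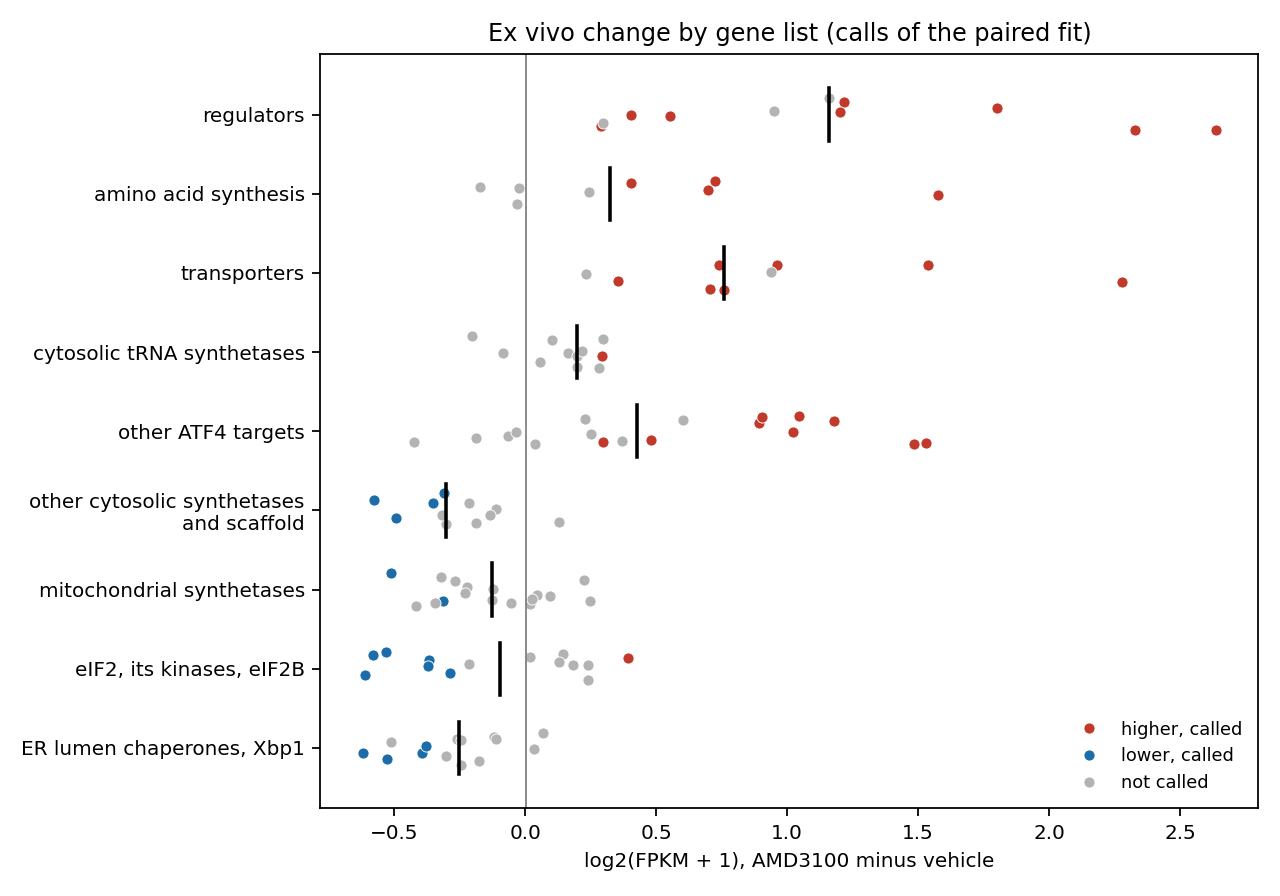
Ex vivo differences of log2(FPKM + 1), AMD3100 minus vehicle, for each gene that passed the filter in 9 gene lists, with black bars at the list medians and colours for calls of the paired fit. The regulators, transporters, synthesis enzymes and other ATF4 targets extend to the right, up to 2.64. The blue symbols left of 0 are in the other cytosolic synthetases, the mitochondrial synthetases, the eIF2 list and the ER chaperones.

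Several other measures moved with AMD3100, and their part in these changes was not tested. The long nuclear RNAs Malat1, Xist, Kcnq1ot1 and Neat1 all rose, by 1.48, 1.33, 1.02 and 0.76, and the fifth of that list, Meg3, was listed at 0. The 10 T cell markers summed to 4640, 4864 and 4506 FPKM in the AMD3100 samples and 5371, 5125 and 4899 FPKM in the vehicle samples, with Cd28 higher and Cd3g lower among the calls. The 12 stromal markers, which OP9 cells could contribute, summed to 37.3, 23.3 and 16.8 FPKM with AMD3100 and 25.6, 47.1 and 12.0 FPKM with vehicle, overlapping, with Lum and Dcn at 0 in all 6. Erythroid markers were at or near 0, with a sum of at most 0.620 FPKM. Relative depth, read from the steps between low values, was 1.06, 1.25 and 1.21 in the AMD3100 libraries and 1, 0.908 and 0.757 in the vehicle libraries. Across genes the log2 difference rose with transcript length (Spearman rho 0.321 over 10079 genes of these 6 libraries), and the genes that rose had a median length of 4832 bases, against 2220 bases for those that fell. The 20 genes of the ATF4 response that rose had a median length of 2810 bases, against 3336 bases for all genes tested with a known length. With a correction for length 19 of the 39 genes were called, all higher. They were 18 of the 20, without Cebpg and Slc1a4, and in addition Shmt2. In that fit 6.81% of 10079 genes were called higher and 5.98% lower.

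The primary tumours bear on whether the same genes differ in tumours labelled as lacking the receptor gene. Some Cxcr4 RNA was still found in all knockout tumours, and its source was not tested. Cxcr4 RNA was lower in the knockouts, at 23.2, 78.9 and 21.9 FPKM in knockout tumours 5, 7 and 8 and 241, 155 and 206 FPKM in wild-type tumours 1, 2 and 4, without overlap (log2 difference -2.49, SE 0.51, adjusted p = 0.986 in limma). All 3 knockout tumours expressed Y-linked genes such as Eif2s3y, at 38.3, 34.2 and 24.5 FPKM, against at most 0.0862 FPKM in wild type. Xist, the RNA of the inactive X chromosome, had 0.829, 2.80 and 2.69 FPKM in knockout tumours and 143, 96.4 and 147 FPKM in wild-type tumours, so genotype and sex cannot be told apart.

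None of the 33 genes that passed the filter was called between Cxcr4 knockout and wild-type tumours in limma, and none had an unadjusted p under 0.05. Over all 10741 genes 0.0372% were called and 4.28% had an unadjusted p under 0.05. Cxcr4 itself was not called in this fit, so the absence of calls cannot show that these genes were alike in the genotypes. The median log2 difference was -0.14 for 8 regulators, -0.28 for 7 synthesis enzymes, 0.14 for 7 transporters and -0.27 for 11 synthetases, against -0.03 for all genes. With 1 tumour left out, the transporter median ran from -0.33 to 0.60 and that of the regulators from -0.36 to 0.099, so both changed sign. The difference of 20 of the 33 genes changed sign when 1 or another tumour was left out. Of the 33 genes, 0 had all knockout tumours above all wild-type tumours, against 4.01% of all genes, and 1 had them all below, against 5.20%. Trib3, Chac1, Slc1a4, Pycr1, Nupr1 and Atf3 were below the filter in the tumours, and Slc7a3 was listed at 0 in all 6.

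Levels spread widely among tumours of the same genotype. Atf4 had 186, 81.8 and 92.7 FPKM in knockout tumours 5, 7 and 8 and 56.7, 123 and 189 FPKM in wild-type tumours 1, 2 and 4. Asns spanned the widest range of the genes listed above 0 in every tumour, with 51.1, 12.4 and 26.0 FPKM in the knockouts and 0.73, 88.5 and 56.6 FPKM in the wild types, so that its highest tumour held 121 times the level of its lowest. Its log2 difference of 0.36 turned to -1.43 without wild-type tumour 1. Slc7a5 followed the order of Atf4, at 111, 35.9 and 50.4 FPKM in the knockouts and 12.3, 71.6 and 134 FPKM in the wild types.

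Of the regulators, Ppp1r15a had 298, 33.9 and 73.0 FPKM in knockout tumours and 10.3, 59.7 and 294 FPKM in wild-type tumours. Ddit3 had 52.1, 19.4 and 33.1 FPKM in the knockouts and 13.9, 18.5 and 32.7 FPKM in the wild types (log2 difference 0.64, SE 0.46). Both were highest in knockout tumour 5 and lowest in wild-type tumour 1. Atf5, so high in culture with AMD3100, had 6.28, 3.02 and 0 FPKM in the knockouts and 4.61, 3.00 and 13.5 FPKM in the wild types, overlapping (log2 difference -1.16, SE 0.84). Sesn2 had 8.21, 9.84 and 9.12 FPKM in the knockouts and 8.37, 10.8 and 14.4 FPKM in the wild types, the steadiest of these.

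The synthesis enzymes overlapped between the genotypes as well. Psat1 had 17.7, 27.8 and 21.98 FPKM in knockout tumours and 34.3, 27.7 and 33.8 FPKM in wild-type tumours, a log2 difference of -0.50 (SE 0.29) with a single tumour out of order. Shmt2 had 54.7, 38.4 and 44.0 FPKM in the knockouts and 34.4, 62.7 and 108 FPKM in the wild types (log2 difference -0.44). Mthfd2 had 54.3, 32.4 and 23.2 FPKM in the knockouts and 15.9, 35.5 and 136 FPKM in the wild types (log2 difference -0.31). For both mitochondrial folate enzymes wild-type tumour 4 was the highest and wild-type tumour 1 the lowest.

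Among the transporters, Slc6a9 varied most, with 150.0, 11.4 and 28.2 FPKM in the knockouts and 1.86, 35.4 and 158 FPKM in the wild types. Slc1a5 had 121, 49.0 and 66.6 FPKM in the knockouts and 44.5, 47.0 and 97.1 FPKM in the wild types. Both were high in knockout tumour 5 and wild-type tumour 4. Slc7a11 ran differently, with 0.26, 0.28 and 1.63 FPKM in the knockouts and 7.53, 0.69 and 3.57 FPKM in the wild types (log2 difference -1.32, SE 0.71), and its highest level was in wild-type tumour 1. Slc38a2 was even, with 73.0, 75.6 and 53.5 FPKM in the knockouts and 97.6, 75.4 and 82.4 FPKM in the wild types.

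Tars was the gene whose groups did not overlap, with 31.7, 29.4 and 32.3 FPKM in the knockouts and 35.8, 55.0 and 42.3 FPKM in the wild types (log2 difference -0.48, SE 0.27). Lars had 20.8, 15.4 and 15.03 FPKM in the knockouts and 19.1, 31.3 and 26.5 FPKM in the wild types (log2 difference -0.55, SE 0.31). Iars had 31.2, 27.1 and 20.5 FPKM in the knockouts and 23.1, 45.8 and 39.0 FPKM in the wild types. All 3 enzymes were highest in wild-type tumour 2. Cars, the cysteine enzyme, had 22.6, 9.75 and 15.5 FPKM in the knockouts and 1.75, 20.2 and 26.3 FPKM in the wild types, the order of Atf4 and not that of the other synthetases.

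**Figure D4:**
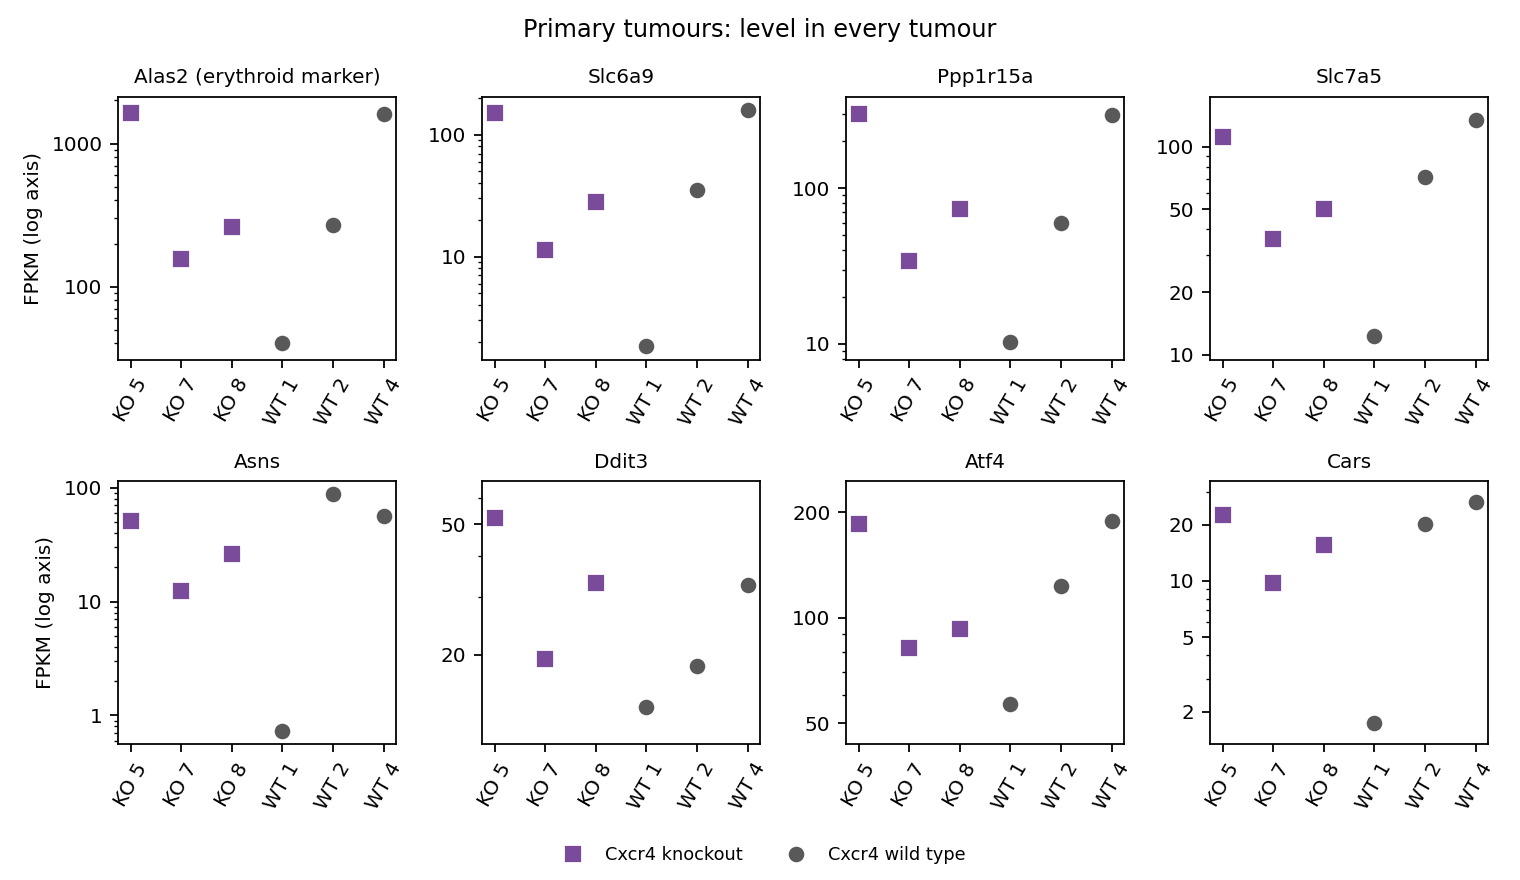
FPKM of 8 genes (log axes) in knockout tumours 5, 7 and 8 (squares) and wild-type tumours 1, 2 and 4 (circles). Wild-type tumour 1 is the lowest in every panel, and knockout tumour 5 and wild-type tumour 4 stand at the top of the panels of Alas2, Slc6a9, Ppp1r15a, Slc7a5, Atf4 and Cars.

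Red cell RNA moved from tumour to tumour with several of these genes, mostly transporters and regulators. Alas2, the enzyme that starts haem synthesis in red cell precursors, had 1640, 155 and 259 FPKM in knockout tumours 5, 7 and 8 and 40.2, 268 and 1612 FPKM in wild-type tumours 1, 2 and 4. The 8 erythroid rows, none of them at 0, summed to 90182, 8954 and 18872 FPKM in the knockouts and 3657, 18998 and 105502 FPKM in the wild types. Eif2ak1, the eIF2 kinase that senses haem and is abundant in red cell precursors, had 374, 74.0 and 102 FPKM in the knockouts and 54.2, 124 and 395 FPKM in the wild types. Atf4, Slc7a5, Slc6a9 and Cars had the same order of the 6 tumours as Eif2ak1. Of the 33 genes, 11 (33.3%) had knockout tumour 5 and wild-type tumour 4 as their highest tumours, against 14.3% of all genes, and these were 5 of 7 transporters, 4 of 8 regulators, 1 of 7 synthesis enzymes and 1 of 11 synthetases. Wild-type tumour 1 was the lowest for 15 of the 33 (45.5%), against 18.1% of all genes. T cell markers were highest in wild-type tumour 1, summing to 1913, 4010 and 3328 FPKM in the knockouts and 5219, 1416 and 1780 FPKM in the wild types. The part of red cell RNA in the tumour levels was not tested. In the ex vivo libraries the erythroid markers were at or near 0.

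Other marker lists did not follow that order. Neutrophil markers summed to 66.8, 335 and 160 FPKM in the knockouts and 218, 3174 and 5.56 FPKM in the wild types. Wild-type tumour 2, the tumour with most of that RNA, also had the highest Asns and the highest levels of Tars, Lars and Iars. Macrophage markers summed to 30.6, 53.4 and 98.1 FPKM in the knockouts and 27.2, 71.3 and 12.9 FPKM in the wild types. Stromal markers were near 0 in every tumour, with sums of at most 14.0 FPKM.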

How the data were processed

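Polyadenylated RNA was measured with strand-specific (dUTP) libraries and 50-base single reads in 12 samples, per the labels. The authors deposited FPKM (fragments per kilobase, corrected for library size) as 2 tables of 6 samples each. The tools named are CASAVA and TopHat and the build mm9, per the submitters' processing notes. Not given in the sources used here are the FPKM program, its annotation and whether it used strand. Read totals are unknown. No column of values was left without a sample (0 columns).

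Each table was analysed alone. The filter kept genes averaging 1 FPKM or more (10245 ex vivo, 10741 in tumours). On log2(FPKM + 1), limma 3.58.1 (R 4.3.3) fitted linear models, and its moderated two-sided test used a variance trend on the mean. Adjustment was Benjamini-Hochberg over all kept genes, and a call is an adjusted p under 0.05. The main fit had no block. Ex vivo samples with the same number deviated together from their group means (correlations 0.467, 0.579 and 0.619, all over the limit of 0.1), so the number was taken to pair them, and the fit with it as a block is reported. What a number marks is not labelled, so the pairing comes from the numbers and these correlations alone. Tumours share no numbers. An exact permutation test of 3 against 3 samples cannot give a p under 0.1, so single genes were tested only within limma. Promoter windows are RefSeq, and the last bases of 30 of 39 windows were found in an annotated transcript of the mouse reference.

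The members, lists and tests were chosen with earlier results of these data known. Values per sample are given for Atf4, Ddit3, Asns, Slc7a5 and Slc7a11 and for the 4 largest changes per group and comparison. Up to 3 genes with the smallest p are given from other lists. Genes singled out beside these (Tars ex vivo, Alas2, Eif2ak1, Rars per sample and the genes named in counts) were chosen after their values were seen. Alternatives were other pseudocounts, filters, scalings, variance models, a threshold of 0.10, the block, leaving out samples and a correction for transcript length. The marker lists covered T cells, erythroid cells, neutrophils, macrophages, B cells and stroma.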

Additional observations from a re-analysis of the deposited data

How the results depend on the processing

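Without the block, members called (0 of all 13 genes called) became 2 with a filter of 5 FPKM (Slc7a1 and Slc7a5; 188 genes), 2 with median-of-ratios scaling (Slc7a1 and Slc7a3; 89 genes) and 12 at an adjusted p under 0.10 (847 genes). The genes called were 8 with no filter, 3 with quantile normalisation and 1 with no mean trend. Leaving out 1 sample gave 3 to 5 genes and 0 members. With the replicate block 20 members and 2036 genes were called. In that paired fit, a pseudocount of 0.1 gave 20 and 2040, 0.5 gave 20 and 2036, no filter 9 and 1074, a filter of 0.1 FPKM 18 and 1778, of 5 FPKM 18 and 2108, median-of-ratios 20 and 2029, quantile normalisation 26 and 1914, no trend 9 and 1089, robust variance 20 and 2470, a threshold of 0.10 gave 26 and 3455, and the length correction 19 and 1289. The 20 members called with robust variance shared 18 with the 20 of the paired fit, with Iars and Shmt2 in place of Trib3 and Atf5. The 19 with the length correction also shared 18, with Shmt2 called and Cebpg and Slc1a4 not. Counting only genes with a mean of 1 FPKM in both groups, a choice made after seeing the data, left 19 and 2008. Without pair 1 it called 0 members and 4 genes, without pair 2 0 and 6, and without pair 3 11 and 559. The cause of these shifts was not tested. No member was called lower under any setting. The median of the synthetases was 0.30 with quantile normalisation in both fits, and the other ex vivo medians moved by less than the spread of the pairs. In the tumours no member was called under any setting, and 4 genes became 0 without a filter and 0 to 2 without a sample. The tumour median of the synthesis enzymes was -0.15 without a filter and -0.51 to -0.0369 without a sample, that of the synthetases -0.62 to -0.00572, of the transporters -0.33 to 0.60 and of the regulators -0.36 to 0.099. Without a sample, 5 of 39 ex vivo differences changed sign, Cebpb (-0.10 to 1.53), Slc7a11 (-0.12 to 1.69), Psat1 (-0.12 to 0.050), Phgdh (-0.10 to 0.068) and Mars. Psat1 was 0.12 with quantile normalisation in both fits and 0.051 with the block and length correction, and Phgdh 0.096 with that correction and 0.023 with the block without pair 2. In the tumours 20 of 33 did so, and of those with values per tumour Asns (-1.43 to 1.41), Atf4 (-0.44 to 0.42), Cars (-0.58 to 1.08), Mthfd2 (-0.998 to 0.51), Ppp1r15a (-0.54 to 1.81), Slc1a5 (-0.043 to 0.67), Slc6a9 (-1.01 to 1.89) and Slc7a5 (-0.73 to 0.94). FPKM give no read totals, so counting error is unknown.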

Other observations

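In the tumours the other lists of the pathway held no call in limma. Of the 11 other cytosolic synthetases and scaffold genes, Dars, the aspartate enzyme, had 42.9, 42.0 and 27.9 FPKM in knockout tumours 5, 7 and 8 and 69.6, 76.5 and 67.1 FPKM in wild-type tumours 1, 2 and 4, without overlap (log2 difference -0.92, SE 0.28, adjusted p = 0.986). Eif2ak3, the eIF2 kinase that senses unfolded proteins in the ER, had 5.90, 10.6 and 1.17 FPKM in the knockouts and 25.4, 12.9 and 11.8 FPKM in the wild types, also without overlap (log2 difference -1.59, SE 0.66, adjusted p = 0.986). In all, 4 of these 11 genes and 3 of the 14 eIF2 genes had all knockout tumours below all wild-type tumours, against 5.20% of all genes. None of either list had them all above, against 4.01%. B cell markers summed to 44.7, 52.1 and 60.5 FPKM in the knockouts and 40.1, 29.1 and 13.4 FPKM in the wild types. Genotype and sex cannot be told apart for these values either.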
